A study of Mus musculus with 14 samples.

Results

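Regions bound by HA-tagged p53 were set against the regions that the same antibody pulled down from cells with no tag. A region is a unique interval of a deposited peak list, described by its highest summit, and 2 regions overlapped when they shared at least 1 bp. The p53 list held 11282 regions and the untagged list 3979, together 15261 of the 351659 regions in the 7 lists of the series. The series profiled E14 mouse embryonic stem cells, a line from a male embryo, by chromatin immunoprecipitation and sequencing (ChIP-seq) in 14 libraries, 2 per list. Cells grew on gelatin in 2i medium, which holds a MEK and a GSK3 inhibitor, with LIF, and were fixed in 1% formaldehyde for 10 min.

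The p53 group came from cells with HA-tagged p53 and the untagged group from cells without the tag, both precipitated with an anti-HA antibody. Stable lines were made by drug selection, per the labels' protocols. The promoter that drove the tagged protein, the number of clones, and whether these 2 groups had received doxorubicin are not given in the sources used here. Neither title of a p53 library sets it apart from the other by replicate number. The input chromatin that served as control for both lists came from cells given 1 µM doxorubicin, a topoisomerase II poison, for 6 h, followed by a 6 h washout and harvest at 12 h. Histone lists for H3K27ac and H3K9me3 came from cells given doxorubicin or its vehicle on the same schedule. Of 36 pluripotency genes, 31 had H3K27ac at or within 1000 bp of either end after vehicle and 31 after doxorubicin, against 5 and 11 of 20 fibroblast genes. Of all protein-coding genes 52.3% and 56.8% had it, so the fibroblast count after doxorubicin was at that background.

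p53 is a transcription factor that binds DNA as a tetramer. Its site is a pair of decamers, each with a fixed C and G around an A/T centre, purines before it and pyrimidines after it. DNA damage stabilises p53, which then induces genes of cell cycle arrest, apoptosis, repair and its own degradation. In embryonic stem cells it has also been linked to loss of self-renewal and to Wnt genes.

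The peak lists gave 45238471 p53 fragments, 49588950 untagged fragments and 16583331 input fragments after removal of duplicates. Pileup is the number of fragments over a summit, scaled by the peak caller to the depth of the input, so 1 unit stood for 2.73 p53 fragments or 2.99 untagged fragments. The weakest listed summits had a pileup of 14.7 in p53 and 16.1 in untagged, or 40 and 48 fragments. Each list was called on its 2 libraries pooled, so no value below has a replicate check and no test between conditions was possible. The intervals in parentheses after shares are 95% Wilson intervals and cover counting error only.

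The promoter sequences under p53 summits come first. Among 32817 RefSeq promoters of GRCm38.p6, the assembly behind mm10, 70 held the summit of a p53 region with no untagged region, or 0.213%. A promoter here runs from 250 bases before a start to 50 after it. The p53 site was searched as 20 bases, 2 adjacent decamers, and since it is palindromic a search of 1 strand covers both. The runs below are shown because they hold the 3 exact matches found in all 32817 promoters, and 6 sites with 1 or 2 mismatches, 5 of them at known target genes. The site is in capitals, with 5 flanking bases on each side, read 5′ to 3′ on the strand of the gene.
Gm51651: ccatcAGACATGCCCAGGCATGTCTtcctc
D730003K21Rik: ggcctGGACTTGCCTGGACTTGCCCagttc
Sptbn4: gagggGAGCTAGCCTAGGCTAGTCTgcatt
Cdkn1a: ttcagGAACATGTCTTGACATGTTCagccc
Gtse1: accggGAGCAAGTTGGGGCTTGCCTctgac
Ccng1: aggccAGACCTGCCCGGGCAAGCCTtggca
Rps27l: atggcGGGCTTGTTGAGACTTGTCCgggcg
1700036G14Rik: ggcctGGACTTGCCTGAAATTGCCCagttc
Ckap2: tctgaAGACATGTCCTGACTTGTCAagcct

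All 3 exact matches lay in promoters with a p53 summit. The Gm51651 run (chr1:155056319-155056348, plus strand), before a predicted gene, lay under the highest pileup of the 70 promoters, 591, with the summit 2.5 bp from the centre of the site. The D730003K21Rik run (chr9:116327244-116327273, plus strand) had a pileup of 227 and the Sptbn4 run (chr7:27396229-27396258, minus strand), of a gene for a beta-spectrin, 54.3. An exact match thus came with pileups that differed by over 10 times, and 1 of them was close to the median of all regions, 51.3.

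The known targets shown had imperfect sites, and were picked for having 1 or 2 mismatches. The promoters of Aen and Trp53, in the target lists below, held a summit but no site with at most 2 mismatches. At the gene of the cyclin-dependent kinase inhibitor p21, Cdkn1a, the run (chr17:29090923-29090952, plus strand) began its site 51 bases before the start, with 1 mismatch at position 11 counted from the 5′ end of the site. Its pileup was 512, with the summit 2.5 bp from the site centre. Gtse1, whose product restrains p53, had 338 at a site (chr15:85859940-85859969, plus strand) that spans the start. Ccng1, the gene of cyclin G1, had 211 (chr11:40755457-40755486, minus strand), and Rps27l, a gene for a ribosomal protein paralogue, 169 (chr9:66946291-66946320, plus strand). Ckap2, which encodes a microtubule-associated protein, had 271 over a site with 2 mismatches (chr8:22185998-22186027, minus strand). That site also lies in the promoter of Gm29878 on the other strand, so 1 region counts for both.

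A pair of these runs is nearly identical. The runs of D730003K21Rik on chromosome 9 and 1700036G14Rik on chromosome 3 (chr3:85317376-85317405, plus strand) share 28 of 30 bases, flanks included. They differ, from the first to the second, by G12A and C14A, counted from the 5′ end of the site. Position 14 is the fixed C of the second decamer. The pileup was 227 at the first and 44.0 at the second, a ratio of 5.15. This pair was picked after the values were seen, the loci differ beyond these runs, and the part of either base in the ratio was not tested.

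Over all 70 summit promoters, 3 (4.29%) had an exact site, 14 (20%, 12.3 to 30.8) had one with at most 1 mismatch and 30 (42.9%, 31.9 to 54.5) had one with at most 2. Promoters that share a p53 region are counted separately, and the intervals treat them as independent. Among all 32817 promoters the shares were 0.00914%, 0.0884% and 0.795%. Among the 190 promoters that overlapped an untagged region, 0 had a site with at most 2 mismatches, with an upper bound of 1.98%. When any overlap with a p53 region counted, 163 promoters and 140 regions entered, and the shares were 1.84%, 8.59% and 19%. The spelled motif CATGNNNNNNCATG, whose core letters are part of many p53 sites, was in 9 of the 70 promoters (12.9%) and in 0.710% of all. Its letter-reversed control GTACNNNNNNGTAC was in 0 of the 70 and in 0.125% of all, and CATG alone was in 72.9% and 61.1%. Both gapped motifs read the same on either strand, and the first can overlap a p53 site. A match is a description of letters and not proof of a bound site.

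Summits sat close to the best match, least so with 4 or more mismatches. The distance from summit to site centre had a median of 10.0 bp over the 14 promoters with at most 1 mismatch, with a highest value of 36.5 bp, and 6.50 bp over the 16 with 2. It was 14 bp over the 18 with 3 and 24.0 bp over the 22 with 4 or more, where the nearest of tied matches was taken. The class with 2 mismatches was thus the closest. Median pileup was lower with each step in mismatches, at 139, 80.3, 73.7 and 38.5. Within 20 bp of the match lay 64.3%, 87.5%, 72.2% and 36.4% of the summits. The highest pileup was 591 with at most 1 mismatch and 105 with 4 or more, and the lowest were 24.9 and 18.3, so the classes overlapped. Promoters that share a p53 region entered these medians and shares separately, so some values are repeated.

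**Figure D1:**
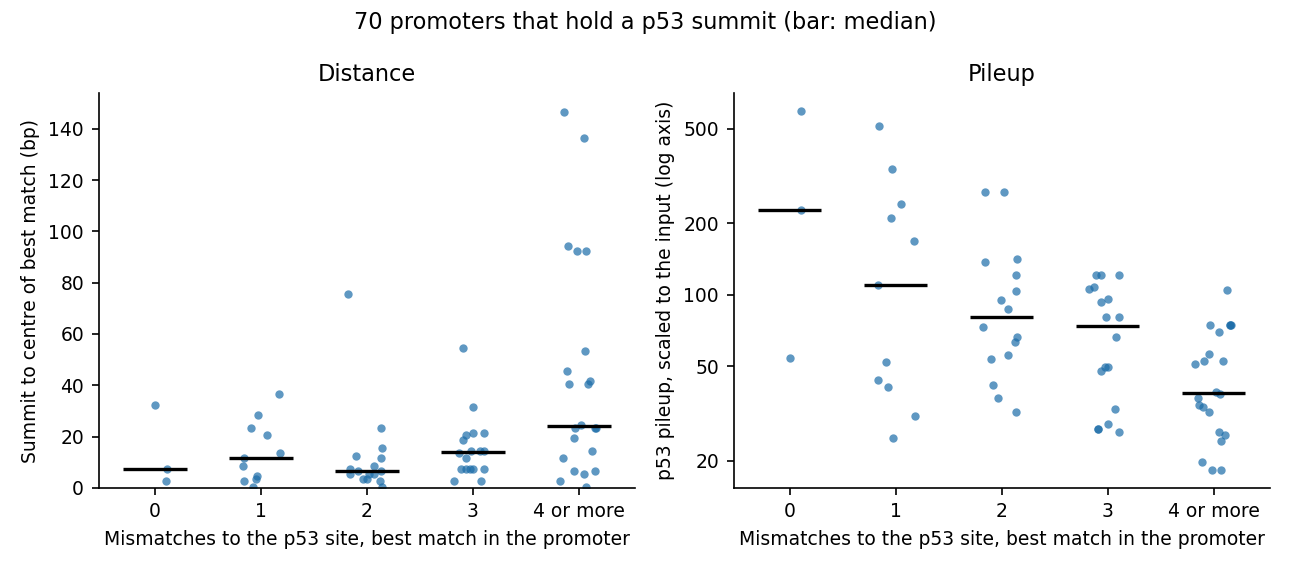
Each point is 1 of the 70 promoters that hold a p53 summit, grouped by the mismatches of its best match to the p53 site. Promoters that share a p53 region are separate points. The left panel gives the distance from summit to match in bp and the right panel the pileup on a log axis. Median distance was 24.0 bp and median pileup 38.5 with 4 or more mismatches, against 10.0 bp and 139 for the classes 0 and 1 together.

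A site was not always listed. Of the 29 promoters with at most 1 mismatch, 14 held a p53 summit and 15 had no p53 region at all. H3K27ac covered 13 of the 14 in vehicle and 14 in doxorubicin, against 3 and 5 of the 15. The share of all 32817 promoters with the mark is not given here, so neither count has a background. Among the 15, the runs of Olfr1057 and Olfr1062 are identical, so not all are separate cases. The single mismatch fell on a fixed C or G in 1 of 11 sites with a summit and in 6 of 15 without. The runs of 4 of these 15 are shown because they hold mismatches of both kinds, and 2 of the 4 keep every fixed C and G.
Cldn16: aatgtGAACTTGCTTGAGCTAGTACttagt
Bco1: aggatGGGCTAGCTCGGGCAAACTCagcag
Clec4b1: tttcaGGACAATTTTAGGCATGTTTttcaa
Gm41854: taaagAAGCATGTTCCAACAAGTCCtgtca

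Cldn16 (chr16:26462900-26462929, plus strand) encodes a claudin and had its mismatch at position 19. Bco1 (chr8:117095649-117095678, plus strand) encodes a carotenoid oxygenase and had it at position 17. Clec4b1 (chr6:123049863-123049892, plus strand) encodes a C-type lectin and had it at position 7, and Gm41854 (chr19:44672198-44672227, plus strand) had it at position 11. Cldn16, Clec4b1 and Gm41854 had no H3K27ac in either treatment, and Bco1 had it in doxorubicin only. The part of the mark or of the mismatch in the absence of a p53 region was not tested.

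The comparison of the 2 HA lists asks which p53 regions rest on the tag. Of 11282 p53 regions, 417 overlapped an untagged region (3.70%, 3.36 to 4.06) and 10865 did not, or 96.3%. From the other side, 372 of 3979 untagged regions overlapped a p53 region (9.35%, 8.48 to 10.3). The p53 list was called against a local background and the untagged list against a genome-wide one, so their lengths are not comparable. Input regions were concentrated in the shared set. They covered 191 of the 417 shared regions (45.8%, 41.1 to 50.6) and 8 of the 10865 others (0.0736%). Of all 3979 untagged regions, 1416 (35.6%, 34.1 to 37.1) overlapped an input region. The same input was the control for the local background of the p53 list, and its part in this contrast was not tested.

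Typical pileup did not separate shared from unshared p53 regions, while fold enrichment and shape did. Median pileup was 51.3 (quartiles 33.0 and 103) without an untagged region and 50.6 (26.4 and 161) with one. The second value moved with the settings, to 29.3 when regions with input were left out and to 181 at a −log10 q of at least 10. The authors' fold enrichment, the ratio of pileup to local background, had medians of 7.75 and 2.97. Only 2.72% of the unshared regions (2.43 to 3.04) had 2 or more summits, against 28.5% of the shared and 29.2% of all untagged regions. In regions with 1 summit it lay a median of 21.0 bp from the centre when unshared, 54.8 bp when shared and 42.5 bp in the untagged list. Unshared p53 regions thus mostly had a single, central summit. Median width was 428 bp when unshared, 481 bp when shared and 482 bp in all untagged regions. The upper quartiles were 596, 780 and 820 bp. Without input regions the median was 420 bp when shared and 398 bp in untagged regions.

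The background that the p53 caller used can be read back from pileup and fold. Dividing the pileup plus 1 by the fold gave 6.09 for untagged regions, as a single genome-wide level. For unshared p53 regions it had a median of 6.17, sat at the genome-wide floor of 5.69 in 37.6%, and exceeded 10 times that floor in 0. For shared regions the median was 13 and the maximum 19276, with 66 above 10 times the floor.

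At most shared regions the 2 pulldowns gave like signal. The ratio of p53 to untagged pileup had a median of 1.02 (quartiles 0.758 and 1.43), and p53 was higher at 217 of 417. The untagged value is the highest pileup of the overlapping untagged region, and the 2 summits lay a median of 100 bp apart. The ratio lay between 2/3 and 1.5 at 232. In 226 shared regions with no input region the median was 1.10 and in 191 with one 0.954. At a −log10 q of at least 10 in both lists it was 0.808, and at a fold of at least 4 it was 1.41, so the side of 1 on which the median fell depended on the threshold. Long untagged regions entered many times. One of 114377 bp on the unplaced sequence JH584304, with a pileup of 8853, held 20 p53 regions, and one of 38356 bp at the start of chromosome 9, with 28233, held 14. Without these 34 the median ratio of the other 383 was 1.06.

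The 5 shared regions of highest p53 pileup each had a lower pileup than the strongest summit of the untagged region they overlapped. The first lay at chr9:3000279-3002192, with 23740 in p53 and 28233 in untagged and a fold of 1.23, and 2 more lay beside it, with Gm32390 as the nearest gene. These 2 were set against the same untagged summit, 6246 and 23625 bp away, so the untagged signal at them is not known. Another lay near Gm9637 on chromosome 14, with 15146 in p53 against 26910. The fifth lay 124321 bp from Fgf14, with 11353 against 13010. All 5 overlapped an input region. The 5 strongest untagged regions were near Gm33780, with 72855, Gm32390, Gm9637, Gm33838, with 16661, and Fgf14, and the regions near Gm33780 and in Gm33838 had no p53 region. These genes are pseudogenes or non-coding except Fgf14, which encodes an intracellular fibroblast growth factor.

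A smaller group of shared regions was much stronger in p53. The ratio was at least 5 at 33 regions, with a median pileup of 506 in p53 and 27.4 in untagged, where it reached 282. Of these 33, 16 overlapped an input region. An intergenic region at chr7:79954463-79955699, nearest to Gm31966, had 7516 against 30.1. A region in Adamts2, the gene of a procollagen protease, had 5554 against 22.7 and the highest fold of the list, 926. Myo16, a gene for an unconventional myosin, had 4271 against 30.1, and the region nearest to Hhip, which encodes a Hedgehog-binding inhibitor, 2435 against 16.7. None of these 4 overlapped an input region, so a list cleared of every region with an untagged overlap loses them. The first 2 of these regions were the 2 strongest of all p53 regions without input. These regions were chosen after their values were seen.

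**Figure D2:**
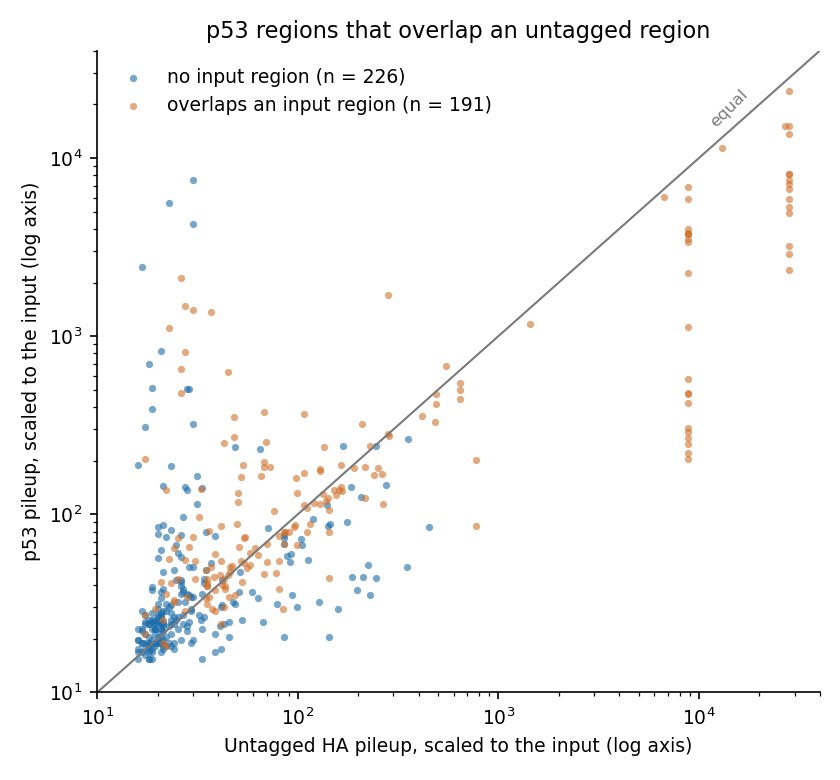
Each point is 1 of the 417 p53 regions that overlap an untagged region, with the untagged pileup on the x axis and the p53 pileup on the y axis, both on log axes. Most points lie along the line of equal pileup, vertical columns at 8853 and 28233 are p53 regions inside the same untagged region, and 33 points have a ratio of at least 5.

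Which p53 regions rank highest depended on the measure. Of the 25 regions of highest pileup, 23 overlapped an untagged region and 20 an input region, and 20 had a fold under 2. Of the 25 of highest fold, 3 overlapped an untagged region and 0 an input region. At a pileup of at least 100 the p53 list held 2950 regions and the untagged list 168, and at 500 or more 450 and 31. After regions with input were left out the numbers were 2842 and 44, and 409 and 0. The highest untagged pileup left was 453, while 66 p53 regions reached 1000. Pileup was scaled to the input in both lists, but the 2 callers' backgrounds set which summits were listed. In p53 regions without input, the share with an untagged region was 1.72% at a pileup of at least 20, 1.02% at 100 and 6.06% (2.38 to 14.6) at 1000, or 4 of 66.

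**Figure D3:**
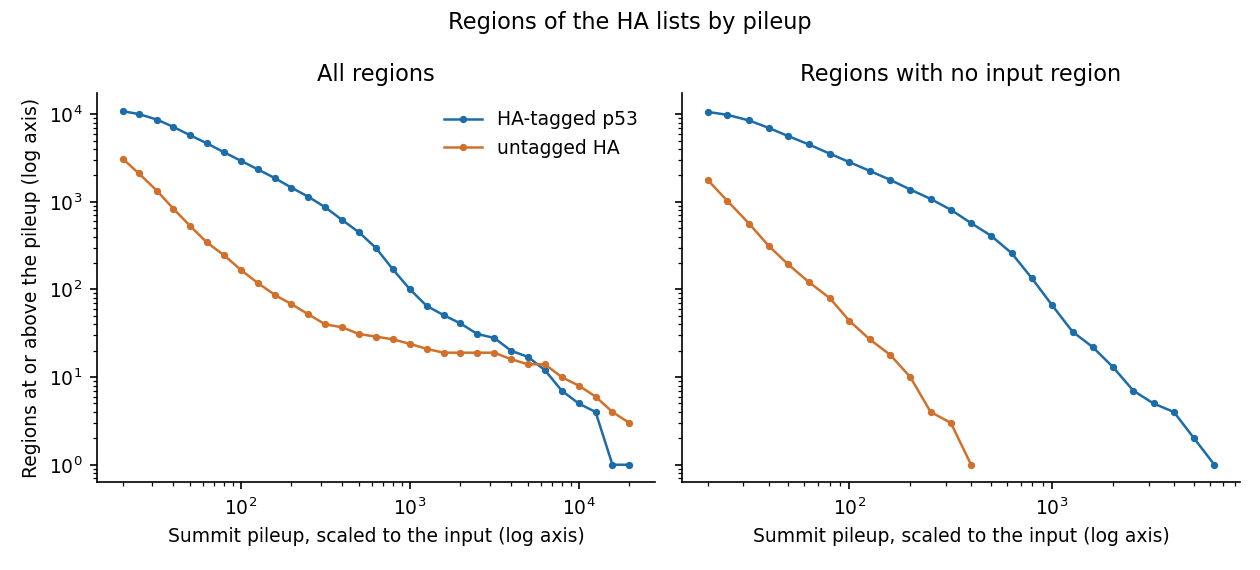
The curves give the number of regions at or above each pileup in the p53 and untagged lists, on log axes, for all regions (left) and for those with no input region (right). Left, the curves meet near the highest pileups, where 17 p53 and 14 untagged regions reach 5000. Right, 409 p53 and 0 untagged regions reach 500.

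Among unshared regions the pileup ran from 14.7 to 4532. The 20 strongest with no input region, on chromosomes 1 to 19 and X, had 1551 to 4532 and a median width of 1230 bp. The first lay in Tubgcp3, a gene of the gamma-tubulin complex, with 4532, then 4378 bp from Mrps31, of the mitochondrial ribosome, with 3826. Rbms3, an RNA-binding protein gene, had 2605 in a region inside the gene, 470717 bp from its nearer end. Zscan20 (2584), Cyp4f39 (2515), Ndufa7 (2473), Tenm3 (2315), Wdr20 (2301), Gm31542 (2173) and Rsph6a (1929) completed the first 10. Others lay in or near Gm6559, Zeb1, Caln1, Tmem45b, Rgcc, Gm40736, Zfp61, Cbs and Gm6951. Of the 20, 10 lay inside a gene, 2 within 1000 bp of a gene end, those at Ndufa7 and Zfp61, and 0 within 1000 bp of a start. The shares of all unshared regions inside a gene or near a gene end are not given here, so those counts have no background. H3K27ac covered all 20 in doxorubicin and 15 in vehicle, and H3K9me3 covered 13 and 8. Of all unshared regions H3K27ac covered 71.7% in doxorubicin and 41.3% in vehicle, and H3K9me3 23.0% and 17.8%. Over all unshared regions the share within 1000 bp of a start was 3.27%, so 0 of 20 does not set the strongest apart. Cdkn1a, the strongest of the target genes, ranked 390 by pileup.

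Width and marks changed with pileup. Median width was 303, 356, 470 and 710 bp over 4 equal groups of unshared regions, from lowest to highest pileup. Over 10 equal groups it went from 300 bp to 843 bp. Regions with 2 or more summits made up 2.69%, 1.84%, 2.43% and 3.90% of the 4 groups. Their summits lay a median of 455 bp apart. H3K27ac covered 28.5%, 33.0%, 42.8% and 60.8% of them in vehicle and 55.5%, 66.1%, 76.1% and 89.0% in doxorubicin. H3K9me3 was not ordered in this way. In vehicle it covered 28% of the lowest of the 10 groups, 7.73% of the fourth and 59.6% of the highest, and in doxorubicin 32.3%, 11.6% and 70.1%. Both ends of the pileup range thus had more of the heterochromatin mark than the middle. In doxorubicin 16.9% of unshared regions carried both marks, and 21.7% carried neither mark in any list. The 226 shared regions without input carried H3K9me3 more often, at 65.9% in vehicle (59.5 to 71.8), against 17.8% of the unshared (17.1 to 18.5), and H3K27ac at 75.7% against 41.3%. The intervals did not overlap. Untagged regions with neither a p53 nor an input region carried H3K9me3 at 40.2% and H3K27ac at 42.2% in vehicle. Width rose with pileup while 1 bp of overlap was enough, and the histone lists were called against a genome-wide background. The part of width or background in these shares was not tested.

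**Figure D4:**
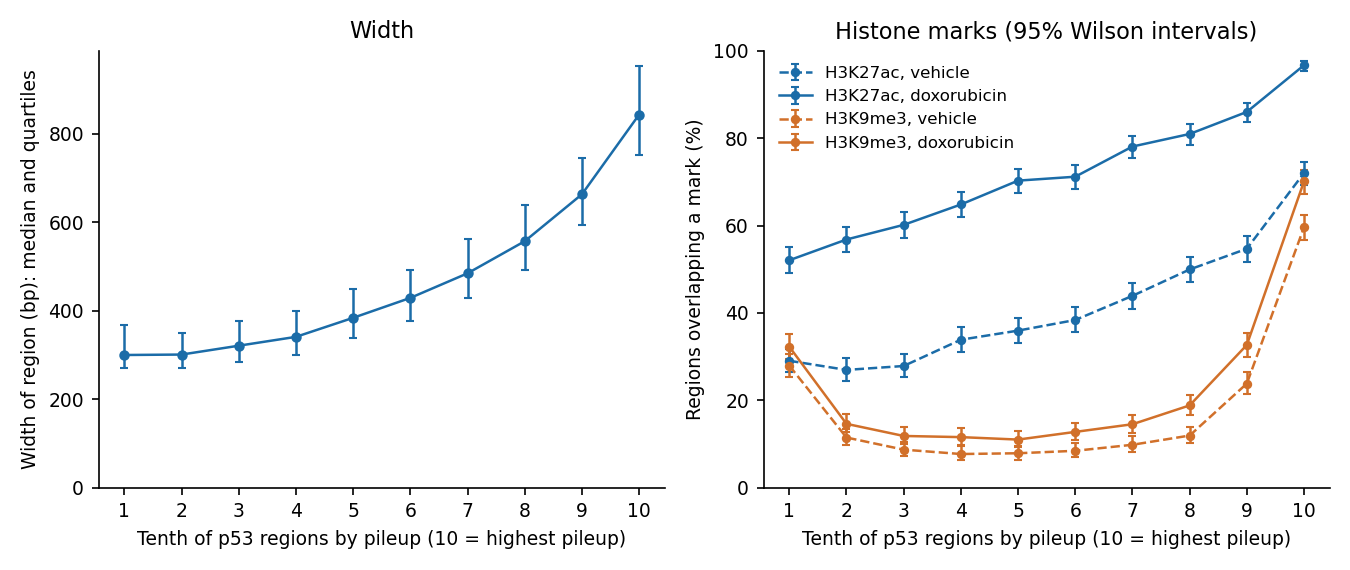
The 10865 unshared p53 regions are split into 10 equal groups by pileup. The left panel gives the median width in bp with quartiles and the right panel the share that overlaps each histone list, with 95% Wilson intervals. Width rises from 300 to 843 bp and H3K9me3 is highest in the lowest and the 2 highest groups.

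The widest unshared regions did not follow this trend. Among p53 regions without an untagged region, the 3 widest and the 4 with most summits lay in a single block on chromosome 16 (chr16:3642179-3663211) with no gene inside, the nearest being the lncRNA gene 6720473M11Rik. Its 5 regions had 32 summits over 21033 bp but pileups of only 17.6 to 94.6. They overlapped 1 H3K9me3 region of 21679 bp in vehicle and 1 of 22195 bp in doxorubicin, 6 H3K27ac regions in doxorubicin and 0 in vehicle. The untagged and input lists had 0 regions there. Shared p53 regions reached 7535 bp and 18 summits, against 6178 bp and 10 summits in this block. The next widest unshared ones were a region in Fank1, of 3186 bp with a pileup of 381 and 5 summits, and one near Zeb1, an inducer of epithelial-mesenchymal transition, of 3117 bp with 1892.

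Most p53 regions stood alone. With a gap of at most 10000 bp as the limit, 9096 of the 10865 had no neighbour and 1769 (16.3%) fell into 832 clusters. The largest held 6 regions over 17691 bp on chromosome 10 (chr10:74922528-74940218), with pileups of 27.9 to 169. At Cdkn1a 4 regions spanned 15918 bp (chr17:29078841-29094758), with pileups from 36.7 to the 512 of the promoter region.

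p53 summits were mostly far from starts. Of 10492 unshared regions on chromosomes with starts in the RefSeq table, 3.27% (2.95 to 3.63) lay within 1000 bp of a start, 21.3% at 1000 to 10000 bp, 41.2% at 10000 to 50000 bp, 16.1% at 50000 to 100000 bp and 18.1% beyond. Chromosome 18, with 337 unshared regions, was not used here for starts. The median distance was 27.5 kb. It was 51.5 kb with starts of protein-coding genes only, where 2.04% lay within 1000 bp. Untagged regions lay within 1000 bp in 6.23% (5.50 to 7.04), with a median of 21.8 kb. Over the 4 groups by pileup this share had no order, at 3.05%, 3.70%, 3.12% and 3.20%, with overlapping intervals. Over the 10 groups it was lowest in the group of highest pileup, at 1.91% (1.24 to 2.93). It was highest in the eighth, at 4.29% (3.22 to 5.69), and the others lay between without a steady order. Within 250 bp of a start, 56 of 95 p53 summits lay upstream (58.9%, 48.9 to 68.3) and 38 of 101 untagged summits did (37.6%, 28.8 to 47.4). Within 1000 bp the shares were 48.4% and 44.5%.

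Unshared p53 regions were spread more evenly over the autosomes than untagged regions, in lists called against different backgrounds. Unshared p53 regions numbered 3.65 per Mb on chromosome 3 to 5.39 on chromosome 11, a ratio of 1.48, with a median of 4.31. Untagged regions ran from 0.391 per Mb on chromosome 19 to 4.30 on chromosome 14, a ratio of 11. The ratio of all p53 to all untagged regions was 12.6 on chromosome 19 and 0.968 on chromosome 14. Input regions overlapped 35.6% of all untagged and 1.76% of all p53 regions. Densities without them were not computed, and the part of the backgrounds in the contrast was not tested. Median pileup of unshared regions ranged only from 47.7 on chromosome 3 to 60.1 on chromosome 10. Relative to genes, the range was 17.5 regions per 100 genes on chromosome 7 to 31.6 on chromosome 16.

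The X chromosome had 198 unshared p53 regions, 1.16 per Mb, or 0.269 of the autosomal median. Their median pileup was 48.0 and their median width 399 bp, near those of the autosomes. Per 100 genes X had 8.75. H3K27ac in vehicle was sparse on X in the same way, with 7.49 regions per Mb against 20.8 to 54.1 on the autosomes, while H3K9me3 was not, with 19.2 against 16.6 to 27.8. Of the p53 regions on X, 19.7% carried H3K27ac in vehicle and 40.4% in doxorubicin, below every autosome (30.0% and 60.9% at the least). The part of the single X of a male line in these numbers was not tested. The Y chromosome had 2 unshared regions, and sequences outside the chromosomes 36.

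**Figure D5:**
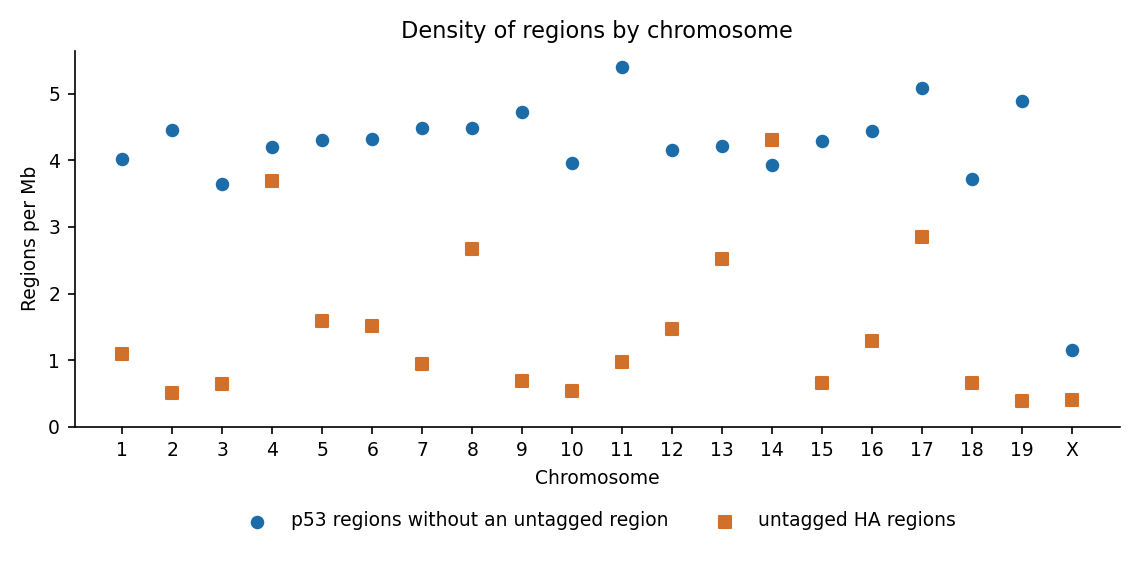
Regions per Mb are given for each autosome and X, for p53 regions without an untagged region (circles) and for all untagged regions (squares). Circles lie between 3.65 and 5.39 on the autosomes and at 1.16 on X, and squares between 0.391 and 4.30.

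Of the genes known as p53 targets, 25 of 78 (32.1%, 22.7 to 43.0) had a p53 region near a gene end. A gene counted when a region lay within 1000 bp of either end, which held for 2.76% of 21883 protein-coding genes in the p53 list and 1.41% in the untagged list. By list it held for 6 of 12 feedback and family genes, 5 of 14 cell cycle genes, 5 of 18 apoptosis genes and 9 of 34 genes of stress, metabolism and repair. Since these genes are known as targets from other cells and were listed with earlier results in view, the count is a description. The untagged list had a region at 1 of the 78, Pmaip1, with a pileup of 27.4, which did not overlap the p53 region there. Median pileup over the 25 was 122, against 51.3 for all unshared regions, and 18 of 25 exceeded the latter. H3K27ac covered 24 of the 25 in both treatments, and H3K9me3 covered 1, that of Cdkn1a. Over all unshared regions the shares were 41.3% in vehicle and 71.7% in doxorubicin for H3K27ac, and 17.8% and 23.0% for H3K9me3. The 25 regions were picked near gene ends. Of the 21 with a known start, 18 lay within 1000 bp of it, against 3.27% of all unshared regions. The marks of p53 regions near the ends of other genes are not given here, so these counts do not set target genes apart.

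Among feedback genes, Zmat3, which encodes an RNA-binding zinc finger protein, had a pileup of 392 and Ccng1 211. Trp53inp1, which promotes p53 activity, had 197 and Mdm2, the ubiquitin ligase that degrades p53, 196, with the summit 679 bp inside the gene. Trp53 itself had a region 73 bp before its start with 49.9, and Rchy1, another p53 ubiquitin ligase, had 30.8. The cell cycle list had Cdkn1a, Gtse1 and Ckap2, given above, then Plk2, a polo-like kinase, with 75.5 and Btg2, an antiproliferative factor, with 62.3.

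Of the apoptosis genes, Bbc3, which encodes PUMA, had 389, Bax, the pore-forming effector, 167 and Aen, an apoptotic nuclease, 122 at 27 bp past its start. Pmaip1, which encodes NOXA, had 49.9 and Siva1 41.8. The stress list was led by Dyrk3, a kinase, with 268 at 1159 bp before its start, and Eda2r, a TNF receptor family member on the X chromosome, with 226. Sco2, needed for cytochrome c oxidase assembly, had 125 and Sesn2, a stress-induced inhibitor of mTORC1, 104. Cpt1c (55.7), Polk, a translesion polymerase (46.2), and Ddit4, another mTORC1 inhibitor (30.8), were near or below the median. Ces2e, a carboxylesterase gene, was lowest with 16.9 and had no H3K27ac.

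The other gene lists are read against the same 2.76% of protein-coding genes, or 1.41% in the untagged list. Of 38 Wnt genes, 2 (5.26%) had a region, the ligand Wnt8a with 91.6 and the receptor Fzd10 with 67.5. Of 36 pluripotency genes and of 20 fibroblast genes, 0 had one, with upper bounds of 9.64% and 16.1%, which include the background share. The list for the 2-cell-like state, in which a few cells of a culture come to resemble the early embryo, had 27 genes, and 3 (11.1%, 3.85 to 28.1) had a region, Zfp750 with 151, Tdpoz2 with 45.5 and Tdpoz5 with 44.0, against 3 in the untagged list.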

How the data were processed

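The lists were made by the authors from 2 pooled libraries each, aligned with Bowtie2 2.2.6 and called with MACS2 2.2.5, per the submitters' processing notes, on mm10 with an added contig, at a q cutoff of 0.05 and 1 fragment kept per position, per the file headers. The deposited signal is the pileup at a summit, which the caller scaled to the input in both HA lists, per the file headers. The authors' q values are on a −log10 scale. The deposited fold enrichment is the ratio of pileup to background, local for p53 and genome-wide for the untagged list, per the file headers.

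Summits of 1 interval were joined and the highest kept. Overlaps needed 1 bp. Genes, starts and promoter sequences came from RefSeq tables of GRCm38.p6. The start table lacks some genes, and chromosome 18. Chromosome lengths were the highest region end over the 7 lists. Named genes were those nearest to the 20 strongest p53 regions without untagged or input region, to the 5 strongest shared and untagged regions and to the 5 widest and 5 most summit-rich regions, and list members with a region within 1000 bp; others were chosen after their values were seen, and some items under the rule are not reported here. The comparison, the gene lists and the tests were chosen with earlier results of these data known. Python 3.11.15, numpy 2.4.6, pandas 2.3.3, scipy 1.17.1 and matplotlib 3.10.9 were used, and overlaps were tested on simulated data against bedtools 2.31.1. Alternatives covered q, fold, overlap, input, chromosomes, list length, joining, gene window and mismatches.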

Additional observations from a re-analysis of the deposited data

How the results depend on the processing

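No paired analysis was possible because the 2 libraries of a group enter 1 list together, which also prevents leaving one out. Of 135 values recomputed under an alternative, 91 stayed within the counting interval (or 1.5 times, for numbers without one) and 44 moved. Allowing 2 mismatches was chosen after seeing the data. Several directions changed side, namely p53 against untagged pileup at shared regions, pileup of regions with against without an untagged region, and, at equal lengths, the p53 against the untagged share.

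The share of p53 regions with an untagged region was 2.12% at a −log10 q of at least 5, 1.56% at 10, 1.11% at a fold of at least 4, 1.95% without input regions and 2.49% with equal list lengths. The share of untagged regions with a p53 region was 6.82%, 6.99%, 4.38%, 8.39% and 1.86% in the same order, and 11.4% with regions within 1000 bp joined. Equal lengths left 3880 p53 regions without an untagged one, a number that the length sets. Median pileup without an untagged region was 55.0, 65.3 and 58.7 at the q of 5, the q of 10 and the fold of 4, and with one 117, 181 and 94.9, or 29.3 without input regions. The ratio at shared regions was 0.808 at the q of 10, 1.41 at the fold of 4 and 1.10 without input regions in either list, with p53 higher in 36.2%, 60.2% and 60.2%.

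Median width was 440 bp at the q of 5 and 450 bp at the fold of 4, and 3.88% had 2 or more summits after joining. With protein-coding starts only, 2.04% lay within 1000 bp and the median distance was 51.5 kb. H3K27ac in doxorubicin covered 73.0% at the q of 5, 75.1% at the q of 10 and 73.0% at the fold of 4, and in vehicle 43.8% at the q of 10. H3K9me3 covered 16.7% in vehicle and 21.9% in doxorubicin at the q of 5, and 16.7% and 22.1% at the fold of 4. Protein-coding genes with a p53 region were 1.66% within 500 bp, 5.59% within 2500 bp and 9.76% within 5000 bp, where target genes reached 43.6% and pluripotency genes 8.33%. The p53 site was in 8.59% of overlapped promoters with 1 mismatch and 19% with 2. The causes of these shifts were not tested beyond what the thresholds, list lengths and windows build in. Depth limits the lists to summits of 40 or more p53 fragments and 48 or more untagged fragments.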
